A study of Leucoraja erinaceus with 6 samples.

Results

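Semaphorins are guidance proteins that steer growing axons, plexins and neuropilins are the receptors that read them, and the dpysl genes encode cytosolic proteins of the collapsin response mediator (CRMP) family that act below those receptors. These genes were followed in bulk RNA-seq of embryos of the little skate (Leucoraja erinacea), a cartilaginous fish. The members were all rows of the count table whose identifier starts with sema3 to sema7, plxna to plxnd, plxdc, nrp1, nrp2, crmp1 or dpysl, which gave 24 of the 22087 named genes. They were 16 semaphorins, 4 plexins, 1 neuropilin, 1 plexin domain containing gene and 2 dpysl genes. All 24 passed the filter on low counts. Genes of these families that carry only a LOC identifier, as 46.3% of the tested genes do, are not analysed here.

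The dorsal root ganglion (DRG), which holds the cell bodies of the somatosensory neurons together with their glia, was compared with the spinal cord, into which the central axons of those neurons grow. Each tissue had 3 libraries, each of them a pool of tissue from 3 to 4 untreated wild-type embryos at stage 32. The labels list both tissues as a mixture of neurons and glia. Replicates 1, 2 and 3 of both tissues carry the pool numbers 815, 816 and 818.

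In vertebrates, class 3 semaphorins are secreted and bind neuropilins, which signal through plexins of the A and D types, whereas class 4, 5 and 6 semaphorins are mostly anchored in the membrane and bind plexins directly. Activated plexins switch off small GTPases of the R-Ras and Rap kind, and the actin and microtubule skeleton of the growth cone is then rebuilt, in part through CRMP proteins. In mice and chicks this signalling keeps sensory axons out of regions they should not enter and sorts them as they reach the spinal cord.

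The tissues matched their labels, although only some markers could be found by symbol. Of 15 sensory neuron symbols, 10 were matched and all 10 were higher in DRG (summed level 818 to 1106 CPM in DRG, against 212 to 228 CPM in spinal cord). Of 18 symbols of spinal cord neurons and progenitors, 10 were matched and all 10 were lower in DRG (4.92 to 8.41 CPM in DRG, against 687 to 748 CPM in spinal cord). Levels are CPM, read counts relative to library size, scaled with TMM factors, which correct for differences in composition. They are not divided by transcript length, so levels of different genes are not compared. Libraries held 24693555 to 29080300 counts. A few genes filled more of the DRG libraries: counts of 13 mitochondrially encoded proteins made up 24.3% to 35.7% of a DRG library, against 5.39% to 6.88% of a spinal cord library.

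Markers of other cell types also moved between the tissues. Of 10 connective tissue and meninges genes, 8 were higher and 2 lower in DRG, with a summed level of 1627 to 3917 CPM in DRG, against 161 to 203 CPM in spinal cord. All 4 matched blood and immune genes differed, 3 of them higher in DRG (72.1 to 149 CPM in DRG and 19.3 to 21.2 CPM in spinal cord, summed). Of 8 endothelial genes, 1 was higher and 3 were lower in DRG (43.7 to 73.4 CPM in DRG, against 112 to 139 CPM in spinal cord, summed). Much of these sums came from 1 gene in each direction. The lower gene cldn5a had a mean of 1.05 CPM in DRG, against 64.3 CPM in spinal cord. The higher gene kdr had 33.9 CPM in DRG, against 9.71 CPM in spinal cord. None of the matched connective tissue, blood and immune or endothelial genes was at 0 in every library of a tissue, and their part in the results below was not tested. Schwann and satellite glia genes went both ways, with 4 of 9 higher and 5 lower in DRG. The higher genes were egr2b, pmp22b, foxd3 and s100b, and the lower genes were mpz, mbpa, plp1a, sox10 and tfap2a. The 9 genes summed to 6682 to 11316 CPM in DRG, against 35825 to 44416 CPM in spinal cord. Most of the spinal cord sum came from the myelin gene mpz, so the sum does not give the amount of Schwann and satellite glia. Proliferation genes also went both ways (3 of 9 higher and 1 lower), and 1 of the 2 muscle genes tested was higher. With the pool number as a replicate block, 9 sensory, 7 connective tissue and 2 blood and immune genes were still called higher in DRG. For the endothelial list, 2 genes were then called lower. The blood and immune gene ptprc lost its higher call (edgeR adjusted p = 0.0580), and spi1b lost its lower call (adjusted p = 0.0866). In bulk tissue, fewer cells of a type and less RNA per cell cannot be told apart.

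Of the 24 genes, 4 were higher in DRG and 10 were lower in DRG at an adjusted p under 0.05 (edgeR's quasi-likelihood test, Benjamini-Hochberg adjustment over all 16112 genes tested). That is 16.7% of the members higher and 41.7% lower, where 27.8% of all genes tested were higher and 28.1% were lower in DRG. In either direction, 14 members (58.3%) differed, which is close to the 55.9% of all genes. With a change of at least 2-fold in addition, 8 members were lower in DRG (33.3%, against 19.8% of all genes) and 2 were higher (8.33%, against 19.2% of all genes). The log2 fold change is that of DRG over spinal cord, and its median was -0.15 over the members and -0.04 over all genes tested. Changes ran from -5.59 for sema3ab to 1.76 for sema3fb. For 15 members (62.5%, and for 65.0% of all genes) no library of one tissue fell in the range of the other, with DRG on top for 5 (where it was 30.8% of all genes) and at the bottom for 10 (41.7%, where it was 34.1% of all genes). The 14 members that differed were all among these 15. Their same sign in all 3 pools followed from the lack of overlap and was no separate result.

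**Figure D1:**
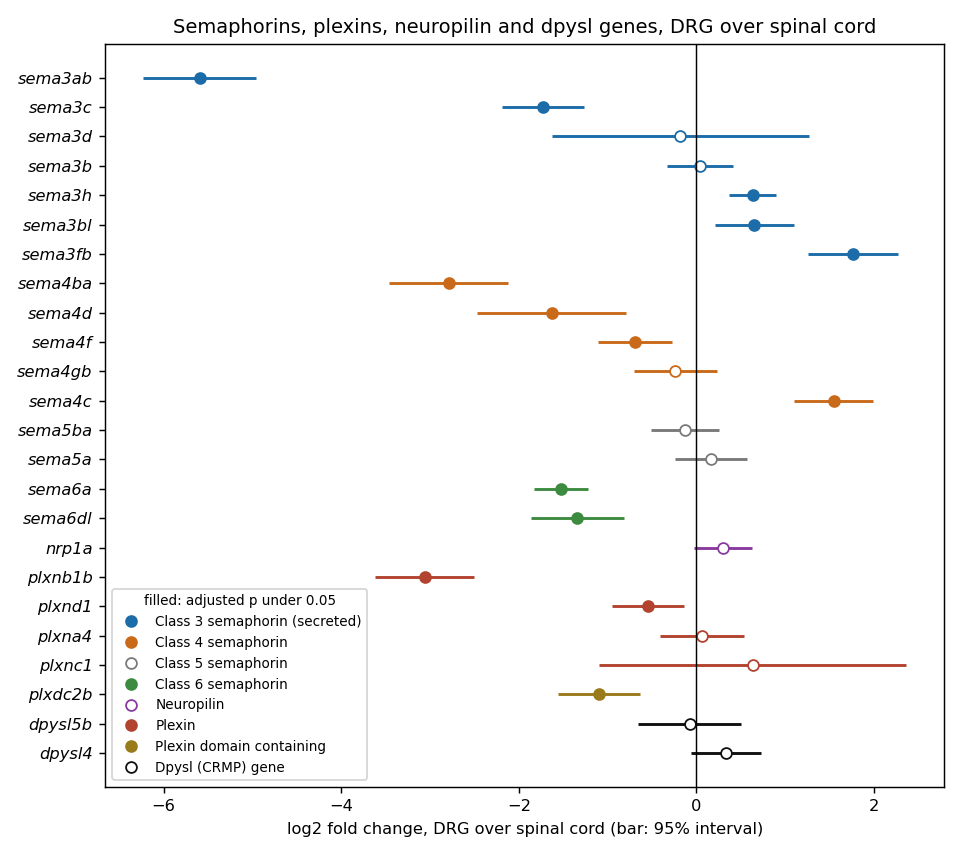
Fitted log2 fold change (DRG over spinal cord) for each gene, 24 in all, with its 95% interval as a bar, grouped and coloured by family; filled points passed an adjusted p of 0.05. The class 3 semaphorins spread from -5.59 (sema3ab) to 1.76 (sema3fb), while both class 6 genes and plxnb1b lie left of 0.

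The secreted class 3 semaphorins went in both directions. Of 7 genes, 2 were lower in DRG (sema3ab and sema3c), 3 were higher (sema3fb, sema3bl and sema3h) and 2 did not pass the test (sema3b and sema3d). That was 28.6% lower and 42.9% higher, beside 28.1% and 27.8% of all genes tested. With scaling to library sizes alone rather than TMM, sema3bl and sema3h changed sign, and sema3fb was then the only member called higher in DRG.

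The largest change of the family was that of sema3ab, which is named after Sema3A, a repellent of sensory and motor axons in rodents and chicks. It had 0.801, 1.06 and 0.452 CPM in DRG replicates 1, 2 and 3, against 34.3, 37.2 and 38.2 CPM in spinal cord replicates 1, 2 and 3. The groups are far apart, and the DRG values rest on 14, 18 and 10 counts, few but above the 3 counts taken as the floor. Spinal cord markers were also read at low levels in DRG (summed 4.92 to 8.41 CPM, against 687 to 748 CPM in spinal cord). The origin of such low counts in DRG was not tested. The fitted log2 fold change was -5.59 ± 0.27 SE (adjusted p = 4.36e-06), a level 48.3-fold lower in DRG. Within pools 815, 816 and 818 the log2 difference was -5.30, -5.05 and -6.19.

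For sema3c, whose mammalian protein binds neuropilins and can attract or repel axons, levels were 27.2, 23.2 and 21.5 CPM in DRG, against 99.7, 62.4 and 76.0 CPM in spinal cord. The lowest spinal cord library still stood well above every DRG library. The fit gave a log2 change of -1.73 ± 0.20 SE (adjusted p = 0.000207).

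The opposite direction was found for sema3fb, named after Sema3F, which in mammals signals through the second neuropilin. It had 92.1, 92.0 and 152 CPM in DRG replicates 1, 2 and 3, and 30.8, 34.4 and 34.2 CPM in spinal cord. All DRG libraries were higher, and DRG replicate 3 stood above the other two. The log2 fold change was 1.76 ± 0.22 SE (adjusted p = 0.000295), or 3.39-fold.

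Smaller increases were found for sema3bl and sema3h, both of them class 3 genes with symbols used in fish. For sema3bl the levels were 11.3, 11.0 and 13.1 CPM in DRG, against 6.52, 7.90 and 8.06 CPM in spinal cord, without overlap (log2 fold change 0.65 ± 0.19 SE, adjusted p = 0.0206). The fits without spinal cord replicate 1, 2 or 3 each lost the call of sema3bl (adjusted p = 0.0798, 0.0600 and 0.0523). Among the class 3 genes, sema3h had the smallest spread relative to its mean in both tissues, at 44.9 ± 1.01 CPM in DRG, against 28.98 ± 0.611 CPM in spinal cord (SD, n = 3 per tissue). Its log2 fold change was 0.63 ± 0.12 SE (edgeR adjusted p = 0.00223), and the differences within pools 815, 816 and 818 were 0.63, 0.63 and 0.62.

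Some class 3 genes lie close to each other. The gene next to sema3bl in the order of the RefSeq gene table is sema3b, with no gene between them. It had 17.2 ± 0.563 CPM in DRG, against 16.8 ± 2.40 CPM in spinal cord (SD, n = 3 per tissue; log2 change 0.04, 95% interval -0.34 to 0.41, edgeR adjusted p = 0.865), against 0.65 (0.21 to 1.10) for sema3bl. Likewise 1 gene lies between sema3ab and sema3d. The counts of sema3d were low, at 30, 11 and 23 in DRG, against 50, 16 and 82 in spinal cord, and its log2 fold change of -0.18 had an interval of -1.63 to 1.27 (adjusted p = 0.825), which does not exclude a difference of more than 2-fold in either direction. Whether the fold changes of neighbours differ from each other was not tested, and reads that could belong to either of 2 similar genes make such counts uncertain.

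Class 4 semaphorins, which span the membrane and in mammals mostly bind B-type plexins, were lower in DRG for 3 of 5 genes and higher for 1. Of all genes tested, 28.1% were lower and 27.8% were higher in DRG. The lowest relative level was that of sema4ba, with 4.23, 4.28 and 8.63 CPM in DRG, against 41.8, 41.7 and 36.2 CPM in spinal cord. Even the highest DRG library, replicate 3, was far under the lowest spinal cord library. The log2 fold change of sema4ba was -2.79 ± 0.29 SE (adjusted p = 0.00012), or 6.93-fold lower in DRG, and it was -3.24 without DRG replicate 3.

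For sema4d, whose mammalian protein is the ligand of plexin B1 and is also made by lymphocytes, levels were 3.09, 9.15 and 5.15 CPM in DRG, against 15.6, 17.2 and 21.1 CPM in spinal cord. The tissues did not overlap, but DRG replicate 2 was 2.96 times as high as DRG replicate 1. In the fit the log2 fold change was -1.63 ± 0.37 SE (adjusted p = 0.00585), and -2.12 without DRG replicate 2. A weaker decrease in DRG was found for sema4f, a transmembrane class 4 gene, at 23.4, 28.8 and 31.5 CPM in DRG, against 39.1, 54.6 and 42.1 CPM in spinal cord (log2 fold change -0.70 ± 0.18 SE, adjusted p = 0.0116). All DRG libraries of sema4f were under all spinal cord libraries.

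The exception in class 4 was sema4c, whose mammalian protein binds plexin B2. It had 30.5, 36.7 and 44.8 CPM in DRG, against 10.6, 14.5 and 13.3 CPM in spinal cord. The groups did not overlap, and the log2 fold change was 1.54 ± 0.19 SE (adjusted p = 0.000304), or 2.92-fold higher in DRG. With library sizes alone it was 0.61 and no longer passed (adjusted p = 0.0625). For sema4gb the levels were 12.2 ± 2.70 CPM in DRG, against 14.4 ± 1.18 CPM in spinal cord (SD, n = 3 per tissue). Its log2 change was -0.24 (95% interval -0.71 to 0.23, edgeR adjusted p = 0.345). With library sizes alone sema4gb was called lower in DRG (-1.17, edgeR adjusted p = 0.00470).

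**Figure D2:**
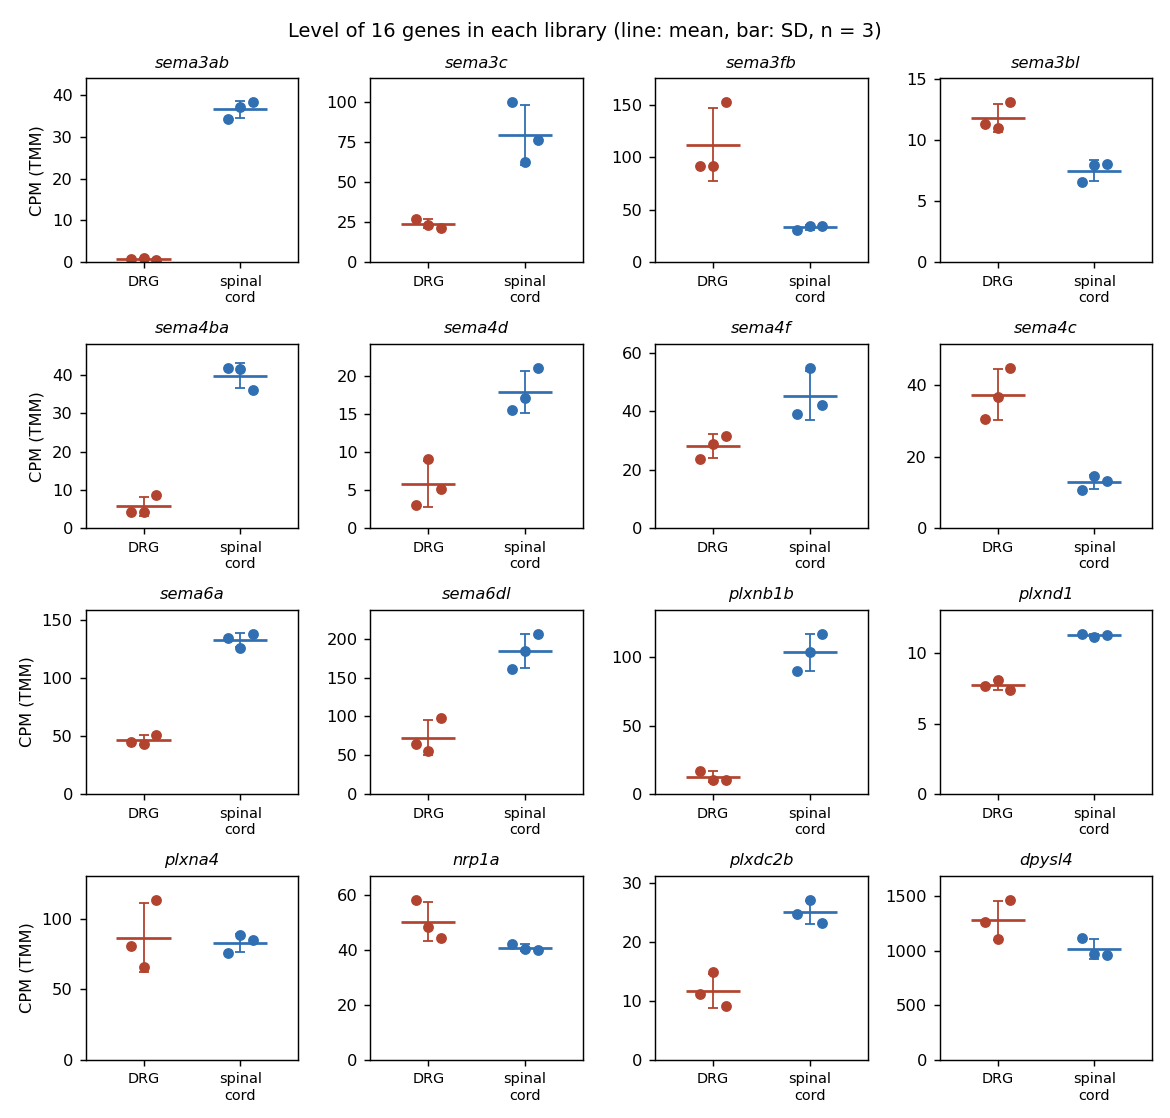
Level (CPM, TMM-scaled) of 16 genes in each library, DRG on the left in red and spinal cord on the right in blue, with the mean as a line and the SD as a bar (n = 3 each). For sema3ab, sema4ba and plxnb1b the DRG points lie near the bottom of the panel (at most 1.06, 8.63 and 17.0 CPM), while sema3fb and sema4c are higher in every DRG library.

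Both class 6 semaphorins were lower in DRG, as were 28.1% of all genes tested. Class 6 proteins are transmembrane ligands of A-type plexins, and in mice and chicks Sema6A at the nerve roots helps to keep motor neuron bodies inside the cord. Levels of sema6a were 44.4, 43.0 and 51.0 CPM in DRG, against 134, 126 and 138 CPM in spinal cord, with little spread in either tissue (log2 fold change -1.52 ± 0.13 SE, adjusted p = 5.26e-05). For sema6dl they were 64.3, 55.5 and 97.9 CPM in DRG, against 162, 185 and 206 CPM in spinal cord (log2 fold change -1.34 ± 0.23 SE, adjusted p = 0.00141). DRG replicate 3 was the highest DRG library for both, and neither gene overlapped between the tissues.

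The class 5 semaphorins, which carry thrombospondin repeats, did not pass the test. The levels of sema5a were 38.0 ± 7.63 CPM in DRG, against 33.9 ± 3.37 CPM in spinal cord (SD, n = 3 per tissue), and those of sema5ba were 12.7 ± 1.30 CPM in DRG, against 13.9 ± 1.12 CPM in spinal cord (SD, n = 3 per tissue). Their log2 fold changes of 0.16 (95% interval -0.24 to 0.57, edgeR adjusted p = 0.455) and -0.13 (-0.51 to 0.26, adjusted p = 0.548) leave room for less than a 2-fold difference on the TMM scale. With library sizes alone sema5a changed sign, and both were then called lower in DRG.

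The receptors were led by a plexin of the B type. Of 4 plexins, plxnb1b and plxnd1 were lower in DRG, and plxna4 and plxnc1 did not pass. The share of plexins that differed was 50%, close to the 55.9% of all genes tested. The largest change was that of plxnb1b, named after the mammalian receptor of Sema4D, with 17.0, 10.1 and 10.1 CPM in DRG, against 90.0, 104 and 117 CPM in spinal cord. The lowest spinal cord library was several times above the highest DRG library. The fitted change was a log2 value of -3.06 ± 0.24 SE (adjusted p = 3.54e-05), or 8.34-fold lower in DRG, and -2.40, -3.35 and -3.52 within pools 815, 816 and 818. The 2 genes named after this ligand and receptor pair, sema4d and plxnb1b, were both lower in DRG, as were 28.1% of all genes tested. The class 4 gene sema4c was higher in DRG (log2 fold change 1.54).

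For plxnd1, the receptor of a class 3 semaphorin that is best known from blood vessels in mice, levels were 7.66, 8.09 and 7.41 CPM in DRG, against 11.4, 11.2 and 11.3 CPM in spinal cord. The groups did not overlap and the spread was small (log2 fold change -0.55 ± 0.17 SE, adjusted p = 0.0280). Of the 8 endothelial markers, 3 were lower and 1 was higher in DRG, with the summed levels given above; their part was not tested. The call of plxnd1 was lost with the pool number as a replicate block (log2 fold change -0.55, adjusted p = 0.0643) and without DRG replicate 1 (adjusted p = 0.0548) or any 1 spinal cord library (adjusted p = 0.0811 to 0.0872).

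The plexin that in mice carries the Sema3A signal in sensory axons is Plexin A4. The gene plxna4 had 80.5, 65.4 and 113 CPM in DRG, against 75.8, 88.0 and 84.7 CPM in spinal cord, with the spinal cord values inside the DRG range. Its log2 fold change was 0.06 ± 0.20 SE (95% interval -0.41 to 0.53, adjusted p = 0.819). With library sizes alone it was -0.86 (adjusted p = 0.0253).

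The neuropilin nrp1a, the binding partner of Sema3A, had 58.2, 48.5 and 44.4 CPM in DRG, against 42.3, 40.5 and 39.8 CPM in spinal cord. All DRG libraries were above all spinal cord libraries, as in 30.8% of all genes tested, but the lowest DRG library was close to the highest spinal cord library. The log2 fold change of 0.30 ± 0.14 SE did not pass the test (95% interval -0.03 to 0.63, adjusted p = 0.104). Without DRG replicate 3 it was 0.37 (adjusted p = 0.0409), and with library sizes alone it was -0.67 (adjusted p = 0.00584). On the TMM scale the fitted DRG levels of nrp1a and plxna4 were 1.23 and 1.04 times those of spinal cord. On the same scale sema3ab was 48.3-fold lower in DRG, and chl1b, whose mammalian protein joins neuropilin in Sema3A receptors, was 4.27-fold lower. The differences between these genes were not tested.

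The remaining plexin, plxnc1, is named after the mammalian receptor of Sema7A, which is found on neurons and on immune cells. It had 1.83, 11.7 and 1.40 CPM in DRG, against 2.72, 2.84 and 3.99 CPM in spinal cord. One library set its mean: DRG replicate 2 was 7.22 times the mean of DRG replicates 1 and 3, which both lay under every spinal cord library. The fitted log2 fold change was 0.63 ± 0.75 SE (adjusted p = 0.500), and -0.99 ± 0.37 SE without DRG replicate 2 (adjusted p = 0.0607). In the same library the leukocyte gene ptprc was high, at 11.7, 67.0 and 13.5 CPM in DRG replicates 1, 2 and 3 and 6.29, 6.51 and 9.40 CPM in spinal cord. The other blood and immune genes that were higher in DRG, rhag and lmo2, were highest in DRG replicate 1. Levels in DRG replicates 1, 2 and 3 were 77.3, 45.9 and 35.3 CPM for rhag and 37.6, 35.3 and 23.1 CPM for lmo2. The gene spi1b, which was lower in DRG, was highest among the DRG libraries in replicate 2 (0.515, 0.704 and 0.316 CPM), but on only 9, 12 and 7 counts. Replicate 2 was also the highest DRG library for summed markers of some other lists. In DRG replicates 1, 2 and 3, connective tissue summed to 2709, 3917 and 1627 CPM and proliferation to 111, 173 and 94.0 CPM. Schwann and satellite glia summed to 6682, 11316 and 6877 CPM and muscle to 19.9, 41.6 and 12.8 CPM. Sensory neuron and spinal cord sums were highest in DRG replicate 3, and the endothelial sum in replicate 1. The part of immune or other cells in the plxnc1 and sema4d values was not tested.

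The gene plxdc2b encodes a membrane protein with a plexin repeat that is not itself a plexin. Its levels were 11.1, 14.8 and 9.13 CPM in DRG, against 24.6, 27.1 and 23.2 CPM in spinal cord, without overlap (log2 fold change -1.10 ± 0.20 SE, adjusted p = 0.00218). It was therefore also lower in DRG in every pool, which is no separate result.

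The cytosolic CRMP genes did not pass edgeR's test with all libraries on the TMM scale. For dpysl4 the levels were 1261, 1107 and 1465 CPM in DRG, against 1118, 965 and 961 CPM in spinal cord, so that 1 DRG library fell just under the highest spinal cord library. The fit gave a log2 change of 0.33 ± 0.17 SE (95% interval -0.06 to 0.72, adjusted p = 0.129), although DESeq2 called it higher in DRG (0.35, adjusted p = 0.0370), and library sizes alone gave -0.60 (adjusted p = 0.0346). Without DRG replicate 2, dpysl4 was also called higher in DRG (0.42, edgeR adjusted p = 0.0470). For dpysl5b the levels were 157, 109 and 230 CPM in DRG, against 166, 189 and 168 CPM in spinal cord. The spinal cord libraries of dpysl5b lay close together, within a DRG spread of 2.10-fold (log2 fold change -0.07 ± 0.25 SE, 95% interval -0.66 to 0.51, adjusted p = 0.819). With library sizes alone dpysl5b was called lower in DRG (-0.98, edgeR adjusted p = 0.0252).

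**Figure D3:**
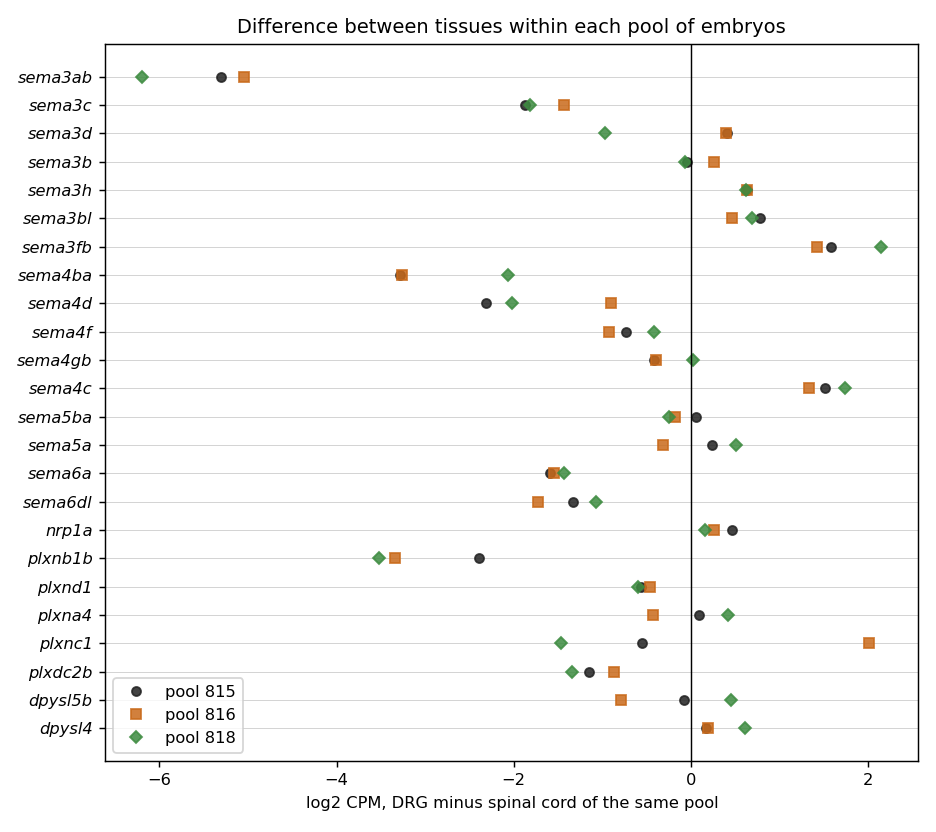
Difference in log2 CPM between DRG and spinal cord of the same pool (815, 816 and 818) for each of the 24 genes. All 3 points lie on one side of 0 for 16 genes; plxnc1 has pool 816 at 2.01 and pools 815 and 818 at -0.56 and -1.47.

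Within DRG, many members had their highest level in replicate 3. This was so for 13 of 24 members (54.2%), where 37.2% of all genes tested were highest in that library. Relative to the mean of DRG replicates 1 and 2, replicate 3 was at 2.03 for sema4ba, 1.73 for dpysl5b, 1.66 for sema3fb, 1.63 for sema6dl and 1.55 for plxna4. It was at 0.49 for sema3ab and 0.74 for plxnb1b. The summed sensory neuron markers were at 904, 818 and 1106 CPM in DRG replicates 1, 2 and 3, of which ntrk2a alone gave 437, 354 and 576 CPM. The markers isl2a, tlx3b, pou4f3 and pou4f2 were also highest in replicate 3. Of the others, isl1a, drgx and runx1 were highest in replicate 1, and tlx2 and runx3 in replicate 2. Connective tissue markers summed to 2709, 3917 and 1627 CPM in DRG replicates 1, 2 and 3, most of it from col1a2. The mitochondrial share was also lowest in DRG replicate 3 among the DRG libraries. The part of these differences in the members' spread was not tested.

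**Figure D4:**
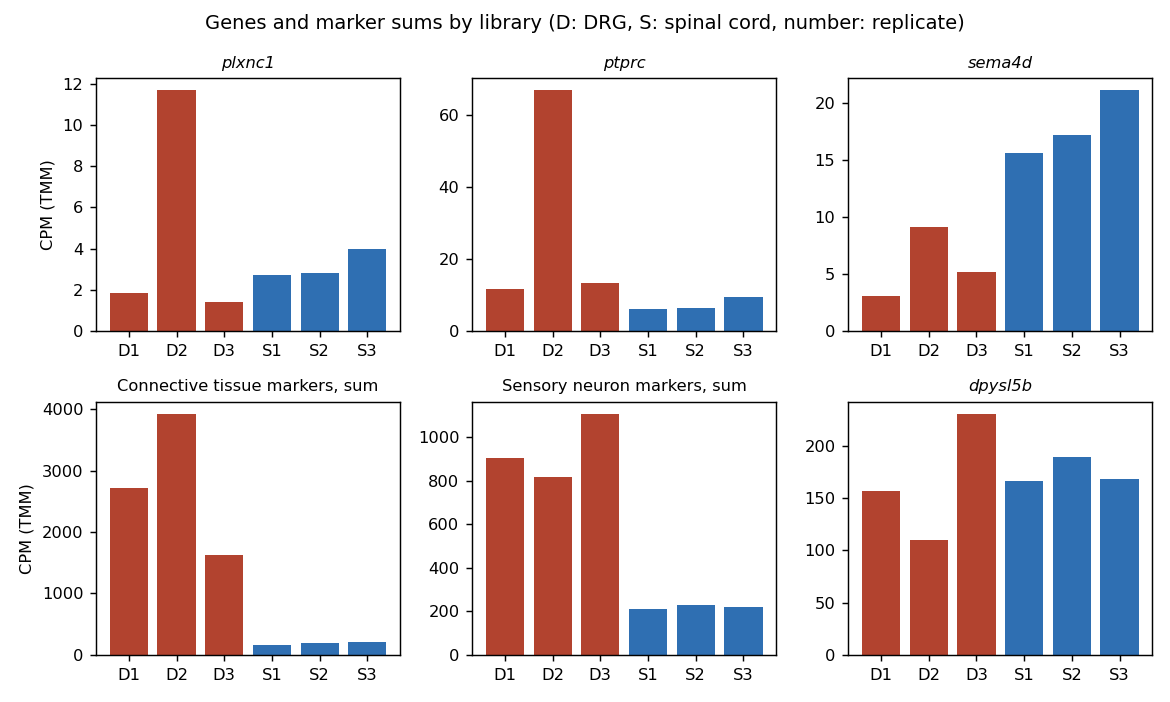
Bars from 0 of the level (CPM, TMM-scaled) in each library, DRG in red and spinal cord in blue, for plxnc1, ptprc, sema4d, dpysl5b and the summed connective tissue and sensory neuron markers. DRG replicate 2 has the highest DRG bar for plxnc1 (11.7 CPM), ptprc (67.0 CPM), sema4d (9.15 CPM) and the connective tissue sum (3917 CPM). DRG replicate 3 has it for dpysl5b (230 CPM) and the sensory neuron sum (1106 CPM).

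Other genes of the pathway were followed in lists of co-receptors, further ligands, GTPases, GTPase regulators, kinases, actin factors and processing proteases. Of 72 symbols, 38 were matched and all 38 genes were tested. Of these, 9 were higher in DRG (23.7%) and 17 were lower (44.7%), beside 27.8% and 28.1% of all genes, and their median log2 fold change was -0.34. With library sizes alone the counts were 1 and 29, where 15.5% of the 10882 calls over all genes were higher in DRG.

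Among 9 co-receptors and other receptors, 4 were lower (44.4%) and 3 higher (33.3%) in DRG, beside 28.1% and 27.8% of all genes tested. Lower levels in DRG were found for met, the hepatocyte growth factor receptor that couples to B-type plexins in mammals, at 0.332 ± 0.356 CPM in DRG, against 4.06 ± 1.01 CPM in spinal cord (SD, n = 3 per tissue; log2 change -3.62, edgeR adjusted p = 0.00263). The counts of met in DRG were 13, 2 and 3, and without DRG replicate 1 its fitted change was -4.96, which with 2 and 3 counts left gives no firm size. The adhesion molecule gene chl1b, whose mammalian protein joins neuropilin in Sema3A receptors, was also lower in DRG, at 61.6 ± 13.1 CPM in DRG, against 263 ± 33.2 CPM in spinal cord (SD, n = 3 per tissue; log2 change -2.09, edgeR adjusted p = 7.1e-05). Higher levels were found for kdr, a VEGF receptor and endothelial marker (log2 fold change 1.80, adjusted p = 0.000778), and for itga1, an integrin subunit (1.10, adjusted p = 0.0137, lost without spinal cord replicate 2 or 3 at 0.0657 and 0.0528, and with library sizes alone). The only further neuropilin ligand matched, vegfc, did not pass (-0.04, adjusted p = 0.937).

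The genes of the GTPase regulator and kinase lists that differed were all lower in DRG. That was 80% of the regulators and 55.6% of the kinase list. Of all genes tested, 28.1% were lower in DRG and 55.9% differed in either direction. Of 5 regulators 4 were lower, with the largest changes for farp1, an exchange factor (log2 fold change -1.23, adjusted p = 9.4e-05), and arhgap35a, a GTPase activator (-0.96, adjusted p = 0.0153; lost without DRG replicate 1 or spinal cord replicate 2, at 0.0528 and 0.0527). Of 9 genes in the kinase list, which includes the activator gene cdk5r1b, 5 were lower, with the largest changes for fes and cdk5r1b. For fes, a tyrosine kinase that acts on plexin A in mammals, the log2 fold change was -2.34 (edgeR adjusted p = 0.00298). Without DRG replicate 2 the change of fes was -2.96. For cdk5r1b, which encodes an activator of the CRMP kinase Cdk5, it was -1.003 (edgeR adjusted p = 0.000956).

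Among 5 small GTPase genes, 2 were higher (40%) and 1 was lower (20%) in DRG, beside 27.8% and 28.1% of all genes tested. The genes rap1aa and rras2, relatives of the GTPases that plexins switch off, rose in DRG (log2 changes of 0.69 and 0.62, adjusted p = 0.00946 and 0.00926), and both fell below 0 with library sizes alone.

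Factors of actin turnover and adaptors went both ways. The cofilin gene cfl2 and the cofilin phosphatase gene ssh2a were higher in DRG (0.81 and 0.86, adjusted p = 0.00392 and 0.00111), with both below 0 under library sizes alone. The phosphatase gene ssh1a and the adaptor gene ranbp10 were lower in DRG (-0.81 and -1.26, adjusted p = 0.0092 and 0.000205).

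Of 4 protease genes, furina, whose mammalian enzyme cuts class 3 semaphorins, was lower in DRG. It had 11.1 ± 3.11 CPM in DRG, against 32.6 ± 3.64 CPM in spinal cord (SD, n = 3 per tissue). Its log2 change was -1.55 (edgeR adjusted p = 0.000633). The genes adam17b and pcsk5b were higher in DRG (0.60 and 0.48, adjusted p = 0.00567 and 0.0130), but below 0 with library sizes alone, and pcsk5b lost its call without any 1 spinal cord library (adjusted p = 0.0522 to 0.0576).

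**Figure D5:**
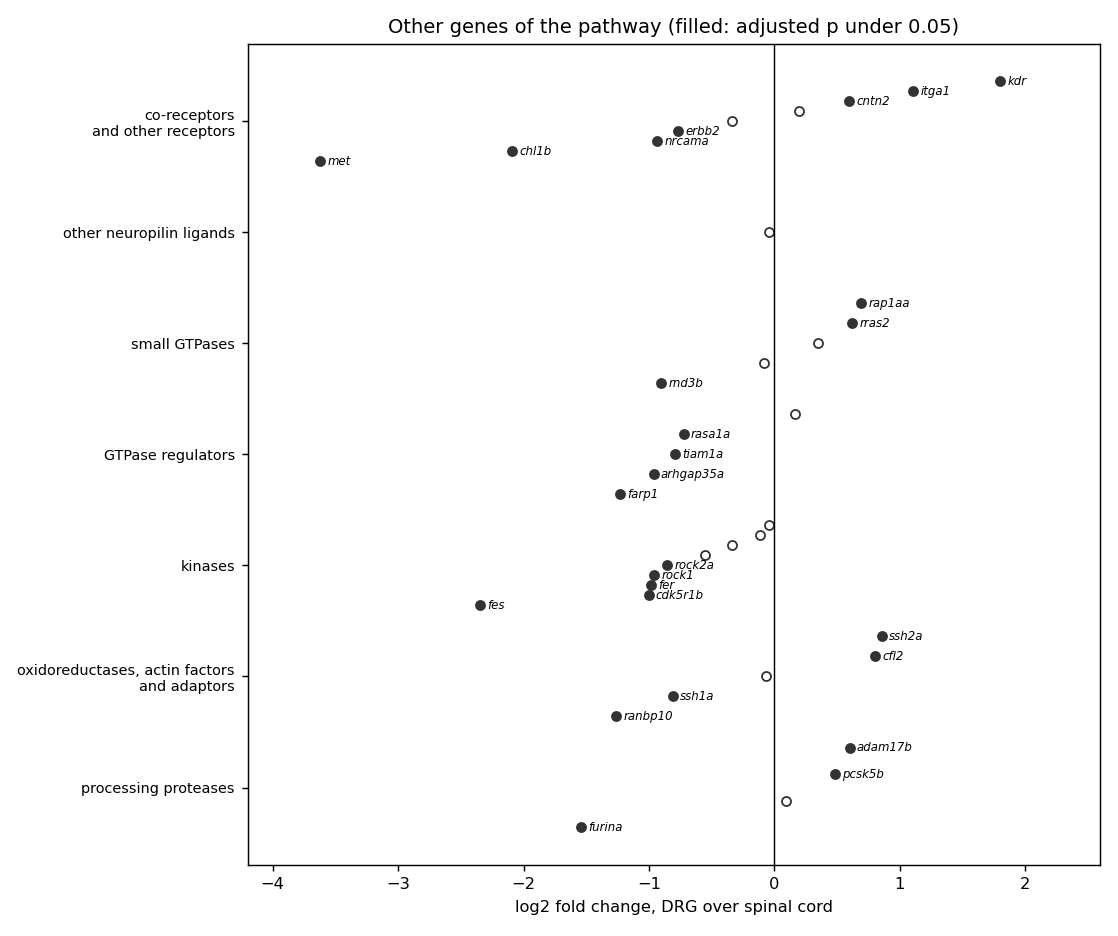
Log2 fold change, as DRG over spinal cord, for 38 other genes of the pathway by list, 1 point per gene; filled and named points passed an adjusted p of 0.05. Every named gene in the lists of regulators and kinases lies left of 0, from -2.34 (fes) to -0.72 (rasa1a). The lists of receptors, actin factors and proteases hold named genes on both sides of 0.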

How the data were processed

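The deposited file is a single table of raw counts, whole numbers for each gene and each of 6 libraries. Per the labels' protocols, libraries were stranded, polyA-selected and sequenced as read pairs; per the submitters' processing notes, Trimmomatic, HISAT2 2.2.0, SAMtools, featureCounts and edgeR 4.4 were used. Build, annotation and strand setting are not given in the sources used here, so no coordinates are printed, and counts of similar or overlapping genes are uncertain. All 24 members matched symbols of the RefSeq gene table of assembly Leri_hhj_1, which was used for names and gene order only.

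A total of 24 unnamed rows (1.91% to 2.04% of counts in DRG, 1.02% to 1.42% in spinal cord) were left out. filterByExpr left 16112 of 22087 genes. The test was edgeR 4.0.16 in R 4.3.3 (TMM, glmQLFTest, tissue as the only term). The SE is the size of the log2 fold change divided by the square root of F, and the 95% interval is built from it with the moderated degrees of freedom. Pool differences use log2 CPM with a prior count of 2. Pathway and marker symbols were matched without regard to case, alone or with suffix a or b. Alternatives were other scalings, DESeq2 1.42.0, limma 3.58.1 voom, other filters, no mitochondrial genes, a replicate block, and each library left out. Counts were also simulated for 15829 genes, with 100 genes changed at a log2 fold change of 1 and 100 at 2. Of these, 29% and 81% were recovered, and 7.56% of the simulated calls were false. Far fewer genes changed there than the 55.9% called in the data, and the adjusted p depends on that share. The simulated rates therefore do not give the recovery in the present comparison.

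The labels give the same pool number, also listed as a batch, to same-numbered libraries of both tissues, so the numbers pair them by label; deviations from the tissue mean correlated at 0.48, -0.24 and -0.18 for pools 815, 816 and 818. With 1 library of either tissue in a pool, no test within a pool could be made. Replicates differed by more than counting noise (chi-square averaged over genes at least 20.4 for every pair of replicates of a tissue). This average used library totals without TMM factors, so differences in composition enter it. Every member was named; for each pathway list, the 2 largest called changes in each direction were named, apart from 1 result that is not reported here. Members and lists were chosen with earlier results of these data known. Figures were drawn with matplotlib 3.10.9.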

Additional observations from a re-analysis of the deposited data

How the results depend on the processing

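The counts of members called (4 higher and 10 lower in DRG) stayed within 1.5 times under every alternative but one: using library sizes alone rather than TMM factors, 1 was higher and 18 were lower, and for the pathway lists 1 was higher and 29 were lower, in place of 9 and 17. With library sizes alone, 10882 of all 16112 genes tested were called, and 15.5% of these calls were higher in DRG. That scaling also moved the median log2 fold change of all tested genes to -0.99, in place of -0.04, so changes are relative to the TMM scale. It reversed sema5a (-0.77), nrp1a (-0.67), dpysl4 (-0.60), sema3h (-0.32), sema3bl (-0.29), sema3b (-0.92), plxnc1 (-0.41), plxna4 (-0.86), adam17b (-0.36), cfl2 (-0.16), pcsk5b (-0.46), rap1aa (-0.28), rras2 (-0.35) and ssh2a (-0.0924). Apart from sema3h and sema3bl, the members reversed were not called with TMM. Further sign changes were those of sema3b with upper quartile factors (-0.0178), sema3b and plxna4 where each library had to hold 10 counts (-0.0450 and -0.0217), and plxnc1 with voom (-0.0882). With each library left out in turn, 3 to 5 members were higher and 9 to 10 lower in DRG, and the log2 fold change ranged from -0.40 to 0.14 for dpysl5b, -0.99 to 1.07 for plxnc1, -0.61 to 0.36 for sema3d, -0.00516 to 0.29 for sema5a, -0.0801 to 0.12 for sema3b and -0.20 to 0.22 for plxna4. The cause of these changes was not tested. Of 336 comparisons of a member with an alternative other than library sizes alone, 311 kept direction and side of the threshold.

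With the replicate block, which pairs the libraries by pool, 4 members were higher and 9 lower in DRG and 8425 genes differed in all. The block ended the call of plxnd1 and turned plxnc1 to -0.0276 (adjusted p = 0.977); it changed no other call of a member or of a pathway gene named here. Filtering to at least 10 counts in every library left met untested. Precision is limited for sema3ab, sema3d, met, fes, itga1 and vegfc, each with fewer than 100 counts in every DRG library.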
